A study of Mus musculus with 20 samples.

Results

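The subunits of the respiratory chain and the ATP synthase that are made from nuclear genes were followed in mouse plantaris muscle during mechanical overload (MOV). They were taken by symbol: genes whose single annotated symbol starts with *Nduf* and an a, b, c, s or v with a digit (complex I), *Uqcr* (complex III), *Cox4* to *Cox8* (complex IV) or *Atp5* (complex V). This gave 80 of the 19505 genes measured, with 37 in complex I, 8 in complex III, 18 in complex IV and 17 in complex V, each read by 1 probe set. All mice were female, 5 months old and of the genotype Pax7CreER/+; Rosa26DTA/+, in which Cre, driven from the *Pax7* locus of satellite cells and switched on by tamoxifen, releases a diphtheria toxin chain. SC- mice had received tamoxifen (Tam) and SC+ mice vehicle (Veh), and each arm had plantaris muscle after sham surgery and after 1, 3, 5 and 7 days of MOV, which was brought about by removing synergist muscles. There were 20 arrays, 2 for each of the 10 groups, and every array held RNA pooled from 2 or 3 animals. SC- and SC+ therefore also differ in the drug given, and the 2 cannot be told apart.

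Complexes I, III and IV of the inner mitochondrial membrane pass electrons to oxygen and pump protons, and complex V, the ATP synthase, makes ATP from the proton gradient. Each complex joins subunits of nuclear genes with a few from mitochondrial DNA, so that transcripts from both genomes are needed. Complex IV has subunits that come in a form of heart and skeletal muscle and a form found in most tissues, among them *Cox6a2* and *Cox6a1*, *Cox7a1* and *Cox7a2*, and *Cox8b* and *Cox8a*.

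Levels are given as the normalized log2 values that the authors deposited, so that a difference of 1 is a doubling. The 20 arrays had medians of 6.5 to 6.57 and values of 2.22 to 19.93. Of the 80 genes, 3 had a mean under 6, where arrays mostly read background (*Cox4i2*, *Cox6b2* and *Cox7b2*), and 4 averaged at least 18, close to the ceiling of the arrays, which can hide part of a change (*Uqcrb*, *Cox7c*, *Atp5b* and *Atp5a1*). *Pax7* itself was close to background in both arms, at 3.77 to 4.70 (median 4.34, n = 10) in SC- and 4.17 to 5.22 (median 4.83, n = 10) in SC+, and 3 of 4 satellite cell markers were lower in SC- with the time points pooled in an additive model (median -0.37, unadjusted p under 0.05 for each of the 3). Over all genes, 4.29% were lower in SC- in that model. By time point, 2, 0, 2, 2 and 1 of the 4 markers were lower in SC- in sham and at days 1, 3, 5 and 7. The tissue label fits its markers, since *Acta1*, skeletal muscle actin, lay at 19.91 or more on every array. The 13 subunits from mitochondrial DNA were not analysed here. *Ndufa4* is kept with complex I because of its symbol, although the protein is now counted with complex IV.

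MOV lowered most of these transcripts in both arms. Each day was compared with the sham of its own arm in limma, and a gene was called where its Benjamini-Hochberg adjusted p over all 19505 genes was under 0.05. In SC-, 48, 70, 71 and 70 of 80 genes fell at days 1, 3, 5 and 7, and 1, 2, 3 and 2 rose. In SC+, 61, 69, 49 and 43 fell at the same days, and 0, 1, 1 and 2 rose. Over all genes tested, 7.62%, 9.57%, 13.0% and 13.6% fell and 6.80%, 11.7%, 14.9% and 15.0% rose at the 4 days in SC-. The shares in SC+ were 9.03%, 9.52%, 7.87% and 7.59% fallen and 8.70%, 12.0%, 11.4% and 10.5% risen.

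The median log2 difference of the 80 genes was -0.92, -1.57, -1.70 and -1.69 at days 1, 3, 5 and 7 in SC-. In SC+ it was -1.16, -1.82, -1.07 and -0.96. The medians over all genes lay between -0.10 and -0.01 in every one of these comparisons. Of the 80, 48 fell at all 4 days in SC- and 37 in SC+, with 31 that did so in both arms. Only *Cox4i2*, *Cox6a1*, *Cox6b2*, *Cox8a* and *Cox8c* did not fall at any day in either arm.

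**Figure D1:**
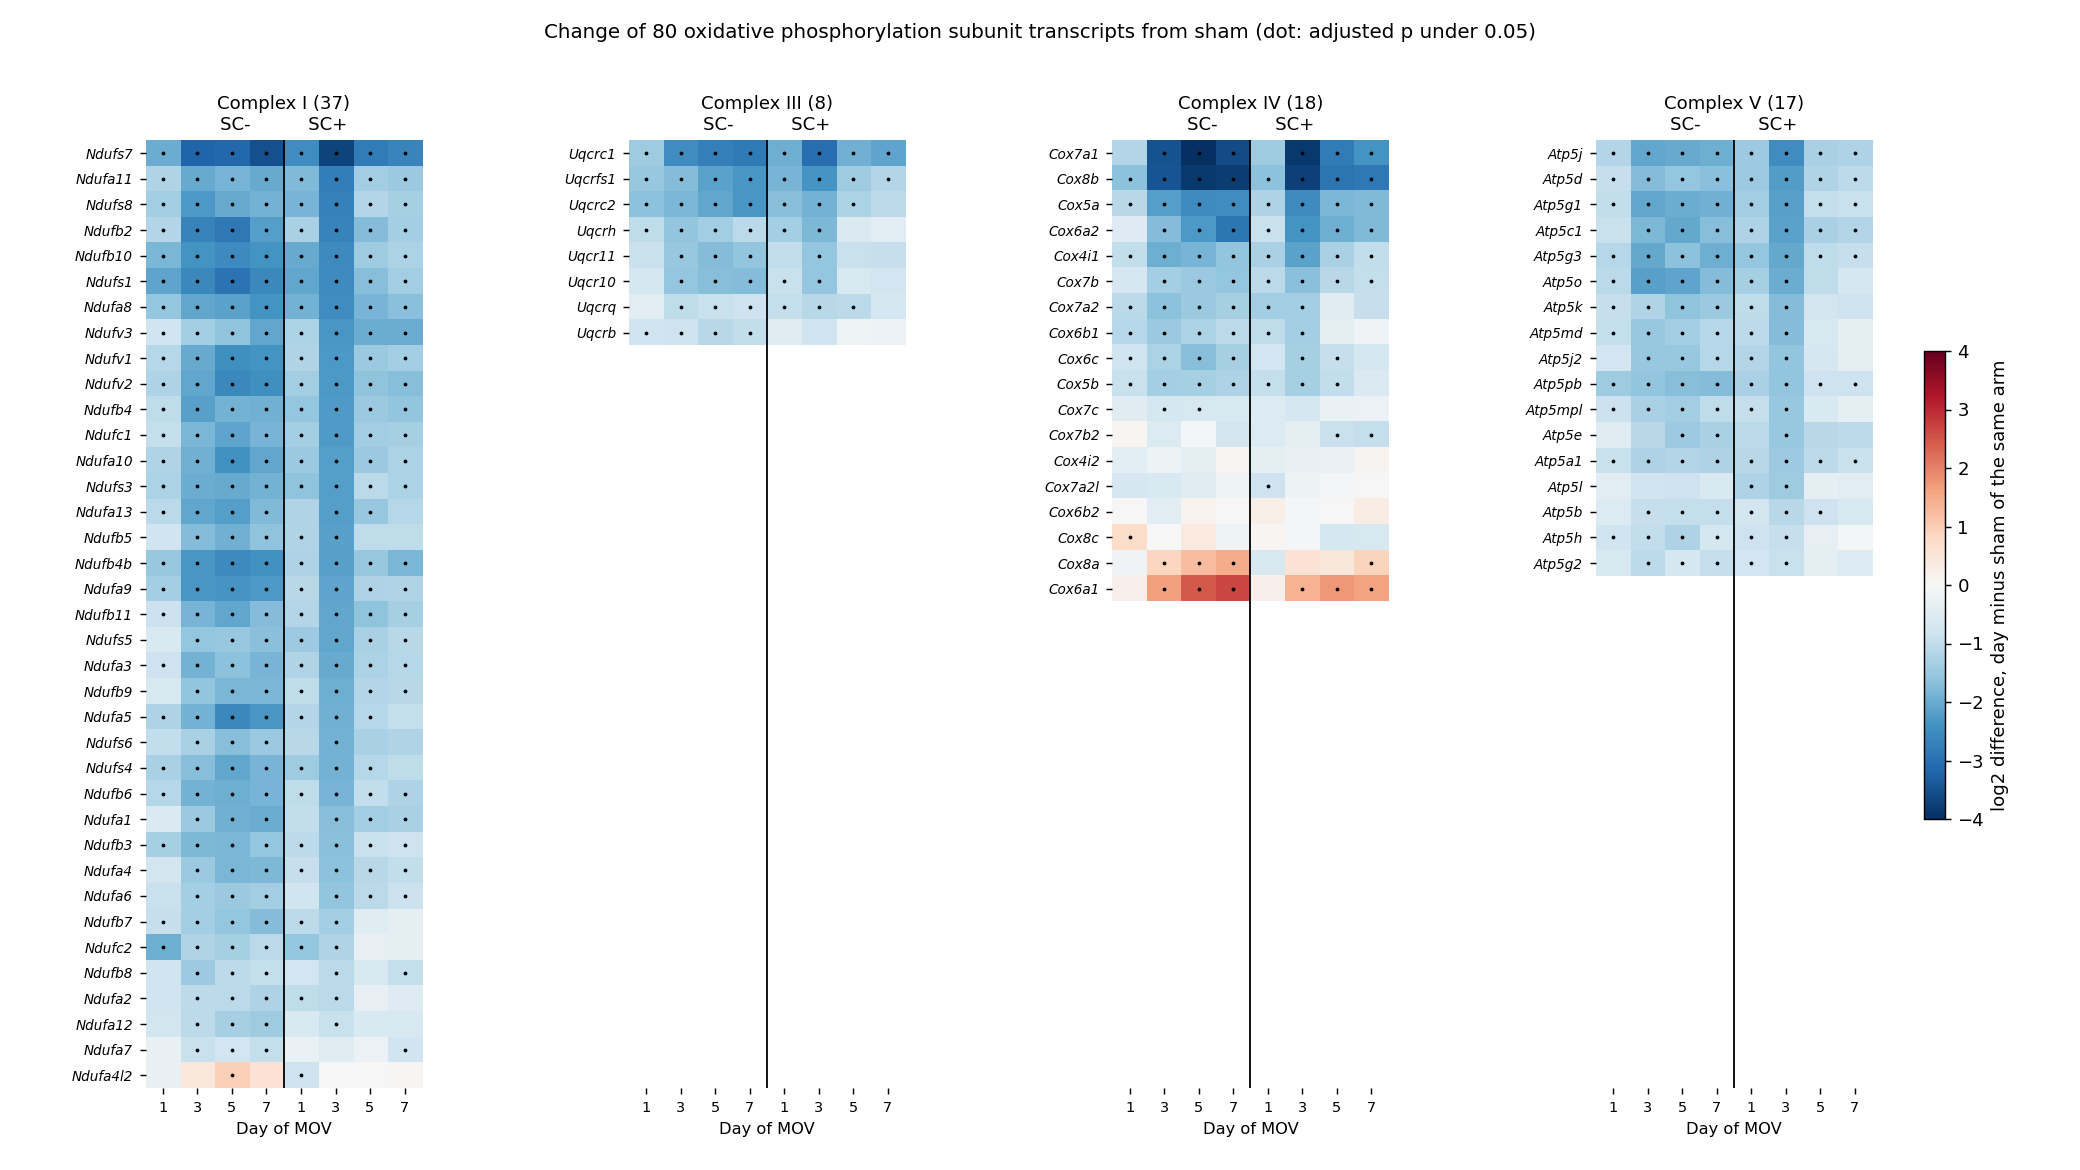
Log2 difference of each of the 80 genes between a day of MOV and the sham of the same arm, by complex, with SC- in the left columns and SC+ in the right columns of each block and genes ordered by their value at day 3 in SC+. Blue is lower and red higher in MOV, and a dot marks an adjusted p under 0.05; nearly all rows are blue, and *Cox6a1* and *Cox8a* are the red rows at the foot of complex IV.

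How many calls stood depended on single arrays, above all in SC+, where the 2 sham pools differed. Set against each gene's own mean over the 20 arrays, the median of the 80 genes was 1.07 and 1.13 in the 2 SC- sham pools, but 1.47 in SC+ sham replicate 1 and 0.73 in SC+ sham replicate 2. Without SC+ sham replicate 1, 20, 57, 15 and 12 genes fell at the 4 days in SC+, and 68, 69, 61 and 55 fell without SC+ sham replicate 2. The SC+ count at day 1 was 25 without SC+ day 1 replicate 1 and 35 without SC+ day 1 replicate 2. It was 12 at day 5 without SC+ day 5 replicate 2 and 12 at day 7 without SC+ day 7 replicate 2. In SC- only day 1 moved as much, with 23 and 25 genes without day 1 replicate 1 and replicate 2, and 30 and 20 without sham replicate 1 and replicate 2. Of the genes that fell, 15, 61, 62 and 59 in SC- and 18, 55, 12 and 12 in SC+ kept the call at days 1, 3, 5 and 7 whichever of the 4 arrays compared was left out. Such a fit also estimates the spread from fewer arrays. The SC+ responses were fitted on the 10 SC+ arrays and the SC- responses on all 20, so the counts of the 2 arms rest on unequal estimates of spread. A call said to have ended without several arrays did so when any 1 of them was left out. The errors and p-values describe differences between pools, not between animals.

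Markers of other cells moved with the time course. Of 13 macrophage markers, 4, 13, 12 and 12 rose at days 1, 3, 5 and 7 in SC- and 4, 12, 12 and 11 in SC+ (1 fell at day 1 in SC+). Of 6 neutrophil markers, 6, 6, 6 and 4 rose in SC- and 6, 6, 4 and 1 in SC+. Of 9 fibroblast markers, 0, 3, 6 and 8 rose in SC- and 0, 4, 8 and 9 in SC+, while 1 and 5 fell at day 1. Of 15 myofibre markers, 3, 7, 10 and 9 fell in SC- and 5, 7, 7 and 4 in SC+, and some of these markers sit at the top of the scale. With each array left out in turn, 3, 13, 12 and 12 of the macrophage rises stood in SC- and 3, 11, 7 and 0 in SC+, where 7 passed at day 5 without SC+ day 5 replicate 2, and at day 7 0, 6 and 4 passed without SC+ day 7 replicate 2, SC+ day 7 replicate 1 and SC+ sham replicate 1. Of the fibroblast rises of day 3 none stood in either arm, as 0 passed without SC- day 3 replicate 1 or SC- sham replicate 2 in SC- and without SC+ day 3 replicate 1 in SC+. Of the myofibre falls 0, 6, 7 and 8 stood in SC- and 2, 7, 4 and 2 in SC+. The log2 of the summed level of the macrophage markers lay between 14.48 and 17.97 in MOV and between 12.79 and 12.87 in sham in SC-, and between 14.98 and 17.79 in MOV and between 11.75 and 14.87 in sham in SC+. The same sum for the myofibre markers lay between 22.48 and 22.96 in MOV and between 23.21 and 23.28 in sham in SC-, and between 22.57 and 22.98 in MOV and between 23.17 and 23.25 in sham in SC+. The sums for neutrophil markers lay between 9.53 and 14.80 over the 16 MOV arrays and between 8.37 and 9.42 over the 4 sham arrays, and those for fibroblast markers between 16.43 and 21.35 and between 17.16 and 18.85. The 2 SC+ sham pools differed here too, with macrophage medians of -3.47 in replicate 1 and -0.82 in replicate 2 and fibroblast medians of -3.01 and -0.20. The part of these markers in the fall of the subunits was not tested. In whole muscle, fewer fibres and less RNA per fibre cannot be told apart.

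**Figure D2:**
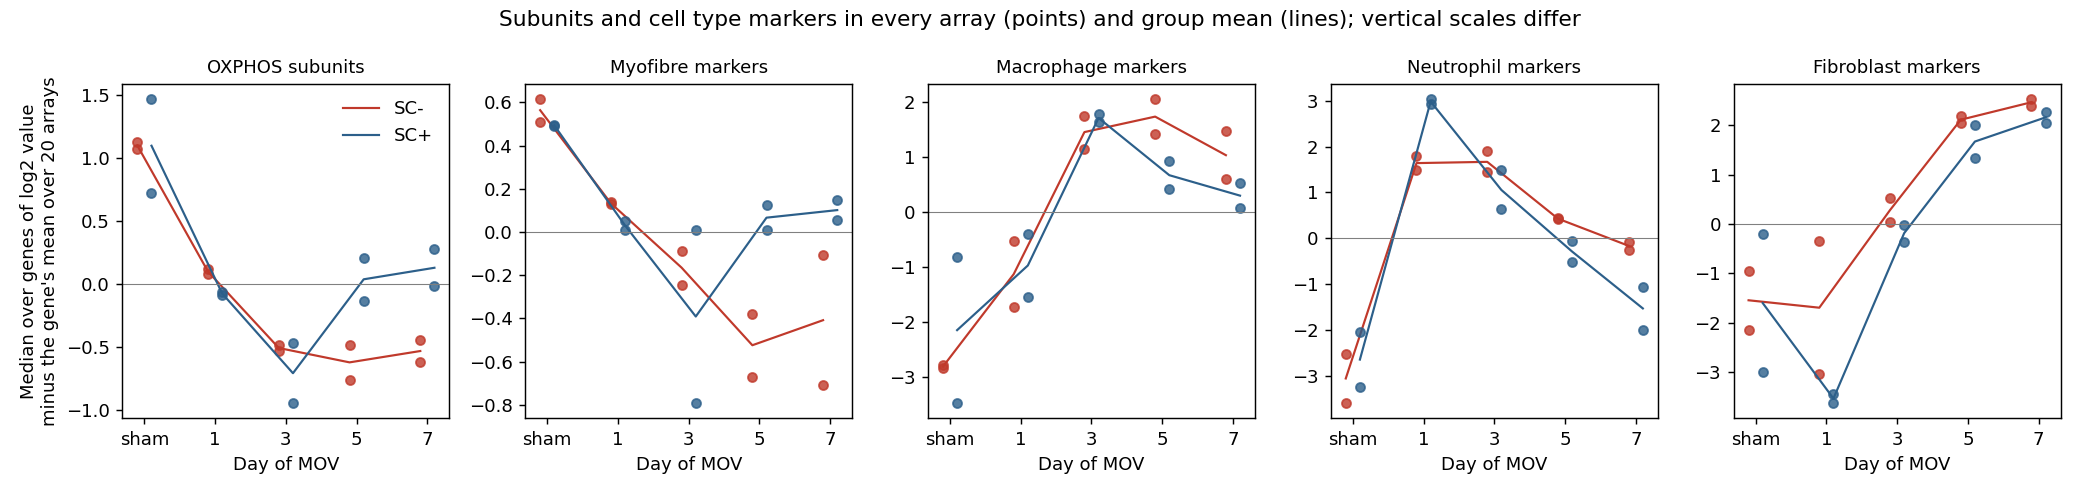
Median, in each array, of the log2 values of the 80 subunit genes and of 4 marker lists, each gene set against its own mean over 20 arrays, by day of MOV (points are arrays, lines join group means, red SC- and blue SC+, vertical scales differ). The subunits are highest in sham, macrophage markers are high from day 3 on in SC- and highest at day 3 in SC+, fibroblast markers are highest at days 5 and 7, and the myofibre median lies between -0.71 and -0.11 in SC- at days 5 and 7, against 0.01 to 0.15 in SC+.

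Complex I is the NADH dehydrogenase that feeds electrons into the chain. In SC-, 25, 36, 36 and 36 of its 37 genes fell at days 1, 3, 5 and 7, with medians of -1.09, -1.87, -1.93 and -1.85. In SC+, 30, 35, 28 and 27 fell, with medians of -1.20, -2.09, -1.27 and -1.22. All 6 measured genes of the catalytic core, whose products together hold the flavin, the iron-sulphur clusters and the quinone site, fell at every day in both arms. Their medians were -1.32, -2.19, -2.52 and -2.43 in SC- and -1.74, -2.40, -1.54 and -1.36 in SC+, beside -0.94, -1.74, -1.86 and -1.83 in SC- and -1.17, -1.96, -1.23 and -1.13 in SC+ for the other 31 genes. The core and the other genes were not compared by a test. Without each array in turn, the core kept 2, 6, 6 and 6 of its 6 calls at days 1, 3, 5 and 7 in SC- and 4, 6, 1 and 1 in SC+. At day 1 in SC- 2, 4 and 3 passed without SC- day 1 replicate 1, SC- day 1 replicate 2 and SC- sham replicate 2. At day 5 in SC+ 1 and 2 passed without SC+ day 5 replicate 2 and SC+ sham replicate 1, and at day 7 1 without SC+ day 7 replicate 2 or SC+ sham replicate 1.

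*Ndufs7*, the core subunit with the last iron-sulphur cluster before the quinone, had the lowest value of complex I at day 3 in SC+. Its 2 SC- sham pools had log2 levels of 14.05 and 15.01, followed by 12.41 and 12.69 at day 1, 11.57 and 11.08 at day 3, 11.82 and 10.97 at day 5 and 10.82 and 11.24 at day 7. The SC+ levels were 15.45 and 13.73 in sham, 12.42 and 11.79 at day 1, 11.20 and 10.56 at day 3, 12.17 and 11.39 at day 5 and 12.30 and 11.60 at day 7. Every MOV pool was below both sham pools of its arm. The log2 differences were -1.98, -3.20, -3.13 and -3.50 in SC- (adjusted p = 0.00795, 7.52e-05, 5.5e-05 and 1.62e-05, standard error 0.476). In SC+ they were -2.49, -3.71, -2.81 and -2.64 (adjusted p = 0.00458, 0.000272, 0.00226 and 0.00335, standard error 0.495), and at day 3 the level was 0.0763 of sham. The day 1 call in SC- ended without SC- day 1 replicate 1 or SC- sham replicate 2, and the other calls of *Ndufs7* stood without any 1 array.

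The core subunit *Ndufs8* and the accessory subunit *Ndufa11* were at -2.29 and -2.02 at day 3 in SC- (adjusted p = 2.74e-05 and 0.000154) and at -2.69 and -2.75 in SC+ (adjusted p = 0.000181 and 0.000261), and all 4 of these calls stood without any 1 array. *Ndufv3*, a small subunit of the NADH-binding part with a mean level under 8, fell at days 3, 5 and 7, to -1.37, -1.60 and -2.08 in SC- and -2.34, -1.99 and -1.99 in SC+, also without any 1 array. At day 1, where most calls rested on single arrays, it passed too, with -0.79 in SC- (adjusted p = 0.0454) and -1.28 in SC+ (adjusted p = 0.00324). At the other end, *Ndufa4l2*, described below with the isoform pairs, had the highest value of complex I at day 3 in SC+, 0.02. *Ndufa7* came next. It had -0.90, -0.77 and -0.97 at days 3, 5 and 7 in SC- (adjusted p = 0.0124, 0.0266 and 0.00579) and -0.50, -0.24 and -0.79 in SC+ (adjusted p = 0.195, 0.56 and 0.0454). Its calls in SC- at day 3 ended without SC- day 3 replicate 2 or SC- sham replicate 2, at day 5 without SC- day 5 replicate 2 or either SC- sham pool, and its SC+ call at day 7 ended without SC+ day 7 replicate 2 or either SC+ sham pool.

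Complex III, the cytochrome c reductase, had 8 genes. All 8 fell at days 3, 5 and 7 in SC- and 5 at day 1, and 6, 7, 4 and 2 fell at days 1, 3, 5 and 7 in SC+. The medians were -0.96, -1.57, -1.71 and -1.65 in SC- and -1.17, -1.67, -0.97 and -0.85 in SC+. *Uqcrc1*, a core protein of the matrix side, had levels of 14.01 and 13.92 in SC- sham, 12.40 and 12.68 at day 1, 11.32 and 11.67 at day 3, 11.36 and 11.14 at day 5 and 11.04 and 11.24 at day 7. In SC+ they were 14.79 and 13.69 in sham, 12.11 and 12.44 at day 1, 11.32 and 11.06 at day 3, 12.64 and 11.97 at day 5 and 12.30 and 11.96 at day 7. No MOV pool reached its sham, and at days 5 and 7 all 4 SC- pools lay below all 4 SC+ pools. The differences from sham were -1.43, -2.47, -2.72 and -2.82 in SC- (adjusted p = 0.00399, 1.64e-05, 3.18e-06 and 1.81e-06) and -1.96, -3.05, -1.93 and -2.11 in SC+ (adjusted p = 0.00236, 0.000117, 0.0026 and 0.0017), and of these calls only that at day 1 in SC- was lost with 1 array, SC- day 1 replicate 1.

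*Uqcrfs1*, the Rieske iron-sulphur protein, was at -1.51, -1.74, -2.15 and -2.34 in SC- and at -1.85, -2.35, -1.43 and -1.19 in SC+. Its SC+ call at day 5 ended without SC+ day 5 replicate 2 or SC+ sham replicate 1, and that at day 7 without either SC+ day 7 pool or SC+ sham replicate 1. *Uqcrc2*, the second core protein, had -1.64, -1.81, -2.08 and -2.33 in SC-, all past the threshold (at day 1 not without SC- sham replicate 2), and -1.71, -1.88, -1.25 and -1.03 in SC+, where day 7 did not pass (adjusted p = 0.0635) and day 5 did not without SC+ day 5 replicate 2 or SC+ sham replicate 1. *Uqcrb*, near the top of the scale, had the smallest value of the complex at day 3 in SC+, -0.79 (adjusted p = 0.0548), with -0.82 in SC- (adjusted p = 0.0316), a call that ended without any 1 of the 4 arrays compared.

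**Figure D3:**
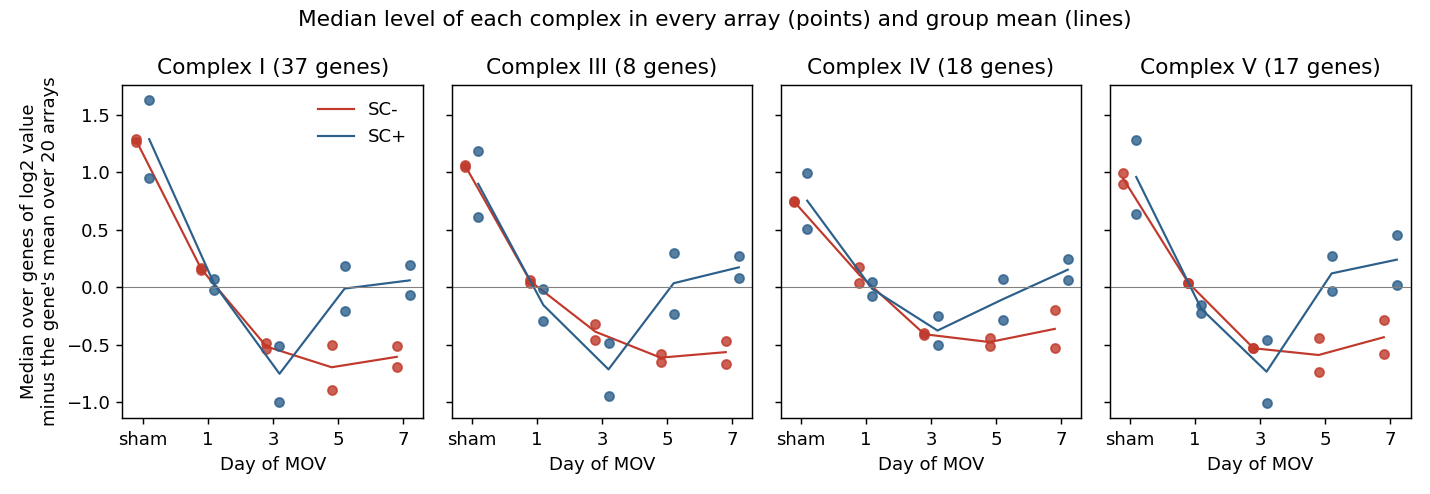
Median log2 value of the genes of each complex in every array, each gene set against its own mean over 20 arrays, by day of MOV (points are arrays, lines join group means, red SC- and blue SC+). At days 5 and 7 every SC- point lies below both SC+ points in all 4 panels, and at days 1 and 3 none does.

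Complex V, the ATP synthase, had 11, 15, 16 and 16 of 17 genes lower at days 1, 3, 5 and 7 in SC-, with medians of -0.89, -1.50, -1.53 and -1.30. In SC+ 16, 17, 8 and 7 were lower, with medians of -1.16, -1.58, -0.84 and -0.82. *Atp5j*, coupling factor 6 of the stalk, had levels of 15.23 and 15.53 in SC- sham, 14.22 and 14.21 at day 1, 13.27 and 13.34 at day 3, 13.52 and 13.20 at day 5 and 13.33 and 13.51 at day 7. The SC+ levels were 15.87 and 15.03 in sham, 14.04 and 13.94 at day 1, 13.18 and 12.74 at day 3, 14.34 and 14.00 at day 5 and 14.51 and 13.94 at day 7. The SC- pools of days 3 to 7 thus lay between 13.20 and 13.52, while each SC+ pool of days 5 and 7 lay above both of day 3. Against sham the gene was at -1.17, -2.08, -2.02 and -1.96 in SC- and at -1.46, -2.49, -1.28 and -1.23 in SC+ (adjusted p = 0.00664, 0.000185, 0.0126 and 0.0169). The SC+ calls ended without SC+ sham replicate 1 at days 1, 5 and 7, and also without SC+ day 5 replicate 2 at day 5 and SC+ day 7 replicate 2 at day 7, and the SC- call at day 1 (adjusted p = 0.00753) ended without SC- day 1 replicate 1 or SC- sham replicate 2.

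Of the 3 genes of the membrane ring of complex V, which encode the same mature protein behind different import signals, *Atp5g1* and *Atp5g3* fell further than *Atp5g2*. At day 3 *Atp5g1* was at -2.07 in SC- and -2.18 in SC+, *Atp5g3* at -2.06 and -2.05, and *Atp5g2* at -1.06 and -0.89 (adjusted p = 0.00105 and 0.0155), and all but the *Atp5g2* value in SC+ stood without any 1 array (that one ended without SC+ day 3 replicate 2 or SC+ sham replicate 1). Within the arrays, the log2 ratio of *Atp5g1* to *Atp5g2* changed by -0.81 between MOV and sham and that of *Atp5g3* to *Atp5g2* by -0.81 (n = 16 MOV and 4 sham arrays, two-sided exact permutation test, p = 0.00124 for each, 0.00174 after Benjamini-Hochberg adjustment over 7 isoform pairs). Within 1 arm, the same test gave 0.0444 in SC- and 0.0889 in SC+ for *Atp5g1* to *Atp5g2*. For *Atp5g3* to *Atp5g2* it gave 0.0444 in each arm, the lowest p that 8 MOV and 2 sham arrays allow. *Atp5d*, the delta subunit of the rotor, had -1.72 at day 3 in SC- and -2.24 in SC+, and *Atp5h*, a subunit of the stator, had -0.99 and -0.94, the last of these not without SC+ day 3 replicate 2 or SC+ sham replicate 1.

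Complex IV, cytochrome c oxidase, held both the largest falls and the largest rises from day 3 on. Of its 18 genes, 7, 11, 11 and 10 fell and 1, 2, 2 and 2 rose at days 1, 3, 5 and 7 in SC-, and 9, 10, 9 and 7 fell and 0, 1, 1 and 2 rose in SC+. The medians were -0.67, -1.32, -1.29 and -1.15 in SC- and -0.87, -1.33, -0.79 and -0.67 in SC+. *Cox5a*, a subunit of the matrix side, was at 14.88 and 14.97 in SC- sham, 13.81 and 13.81 at day 1, 12.60 and 12.83 at day 3, 12.41 and 12.43 at day 5 and 12.21 and 12.65 at day 7, and at 15.25 and 14.58 in SC+ sham, 13.61 and 13.79 at day 1, 12.63 and 12.20 at day 3, 13.26 and 12.94 at day 5 and 13.20 and 13.09 at day 7. The pools of MOV and sham did not overlap in either arm. *Cox5a* fell at every day, with differences of -1.11, -2.21, -2.50 and -2.50 in SC- and -1.22, -2.50, -1.82 and -1.77 in SC+, and except at day 1 in SC+, where SC+ day 1 replicate 1 and SC+ sham replicate 1 were each needed, every call stood without any 1 array.

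The subunit forms that are particular to heart and skeletal muscle and their partners found in most tissues changed unequally. *Cox7a1*, the muscle form of subunit 7a, had levels of 14.26 and 14.44 in SC- sham, 13.41 and 12.92 at day 1, 11.11 and 10.64 at day 3, 10.42 and 10.01 at day 5 and 10.63 and 10.92 at day 7. In SC+ it had 15.16 and 13.55 in sham, 12.81 and 13.05 at day 1, 10.92 and 10.08 at day 3, 12.13 and 10.98 at day 5 and 12.32 and 11.62 at day 7. The differences from sham were -1.19, -3.48, -4.13 and -3.58 in SC- (adjusted p = 0.0874, 1.87e-05, 1.84e-06 and 6.34e-06) and -1.42, -3.85, -2.80 and -2.38 in SC+ (adjusted p = 0.0776, 0.000259, 0.00273 and 0.00715), so that the level at day 5 in SC- was 0.057 of sham. In SC+, the day 1 value passed without SC+ sham replicate 2 (-2.23, adjusted p = 0.00535), and the day 7 call ended without SC+ sham replicate 1 (-1.58, adjusted p = 0.0571) or SC+ day 7 replicate 2 (-2.03, adjusted p = 0.0805). *Cox7a2*, the partner, also fell in SC-, with differences of -1.07, -1.65, -1.50 and -1.33 (adjusted p = 0.0154, 0.000299, 0.000491 and 0.00129), and had -1.38, -1.36, -0.48 and -0.93 in SC+, where days 5 and 7 did not pass (adjusted p = 0.311 and 0.0534). Its calls at day 1 ended without SC- day 1 replicate 1, SC- day 1 replicate 2 or SC- sham replicate 1, and without SC+ day 1 replicate 1 or SC+ sham replicate 1, and that at day 3 in SC+ without SC+ day 3 replicate 2 or SC+ sham replicate 1 (-1.23 and -0.91).

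*Cox8b*, the muscle form of subunit 8, had levels of 13.59 and 13.82 in SC- sham, 12.28 and 11.85 at day 1, 10.29 and 10.21 at day 3, 10.16 and 9.53 at day 5 and 9.49 and 10.30 at day 7, and 14.20 and 13.25 in SC+ sham, 12.12 and 12.06 at day 1, 10.46 and 9.53 at day 3, 11.22 and 10.35 at day 5 and 11.29 and 10.44 at day 7. It fell at every day, with differences of -1.64, -3.45, -3.86 and -3.81 in SC- and -1.64, -3.73, -2.94 and -2.86 in SC+, and past day 1 no call rested on 1 array. *Cox8a*, its partner, went the other way. Its levels were 11.58 and 11.58 in SC- sham, 11.30 and 11.56 at day 1, 12.68 and 12.18 at day 3, 12.89 and 12.75 at day 5 and 13.20 and 12.90 at day 7, and 11.85 and 12.25 in SC+ sham, 11.32 and 11.51 at day 1, 12.56 and 12.73 at day 3, 12.49 and 12.54 at day 5 and 12.94 and 12.96 at day 7. From day 3 on every MOV pool lay above both sham pools of its arm. *Cox8a* rose in SC- from day 3 on, by 0.85, 1.24 and 1.47 (adjusted p = 0.0105, 0.000358 and 6.11e-05), and at day 7 in SC+, by 0.90 (adjusted p = 0.0148), with 0.59 and 0.47 at days 3 and 5 (adjusted p = 0.0824 and 0.178). The rise at day 3 in SC- ended without SC- day 3 replicate 1 (0.60, adjusted p = 0.175), and that at day 7 in SC+ without either SC+ day 7 pool or SC+ sham replicate 1 (0.70, adjusted p = 0.13).

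*Cox6a2*, the muscle form of subunit 6a, had levels of 18.64 and 18.77 in SC- sham, 18.42 and 17.99 at day 1, 16.95 and 17.00 at day 3, 16.43 and 16.37 at day 5 and 15.42 and 16.20 at day 7. The SC+ levels were 18.99 and 18.62 in sham, 17.72 and 18.09 at day 1, 16.59 and 16.27 at day 3, 17.10 and 16.63 at day 5 and 17.07 and 17.01 at day 7. It fell at days 3, 5 and 7, with differences of -1.73, -2.30 and -2.90 in SC- and -2.38, -1.94 and -1.77 in SC+, calls that stood without any 1 array. At day 1, where most calls rested on single arrays, it passed in SC+ (-0.90, adjusted p = 0.0297) and not in SC- (-0.50, adjusted p = 0.268). *Cox6a1*, the partner, was the gene that rose most among the 80. Its levels were 10.11 and 10.26 in SC- sham, 10.04 and 10.74 at day 1, 12.05 and 11.58 at day 3, 12.53 and 12.77 at day 5 and 13.08 and 12.66 at day 7, and 9.75 and 11.15 in SC+ sham, 10.66 and 10.64 at day 1, 11.72 and 11.99 at day 3, 11.99 and 12.35 at day 5 and 11.81 and 12.30 at day 7. In SC- it was 1.63, 2.47 and 2.69 above sham at days 3, 5 and 7, a rise that passed each time (adjusted p = 0.00226, 3.25e-05 and 1.26e-05), to 5.53 times sham at day 5, and these calls stood without any 1 array. In SC+ it rose by 1.40, 1.72 and 1.61 (adjusted p = 0.0183, 0.00747 and 0.0115). The 2 SC+ sham pools differed by more than a doubling, and without SC+ sham replicate 1 the SC+ values were 0.70, 1.02 and 0.91 (adjusted p = 0.165, 0.0524 and 0.0881). The SC+ rises also ended without either SC+ day 3 pool at day 3, SC+ day 5 replicate 2 at day 5 and SC+ day 7 replicate 2 at day 7.

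**Figure D4:**
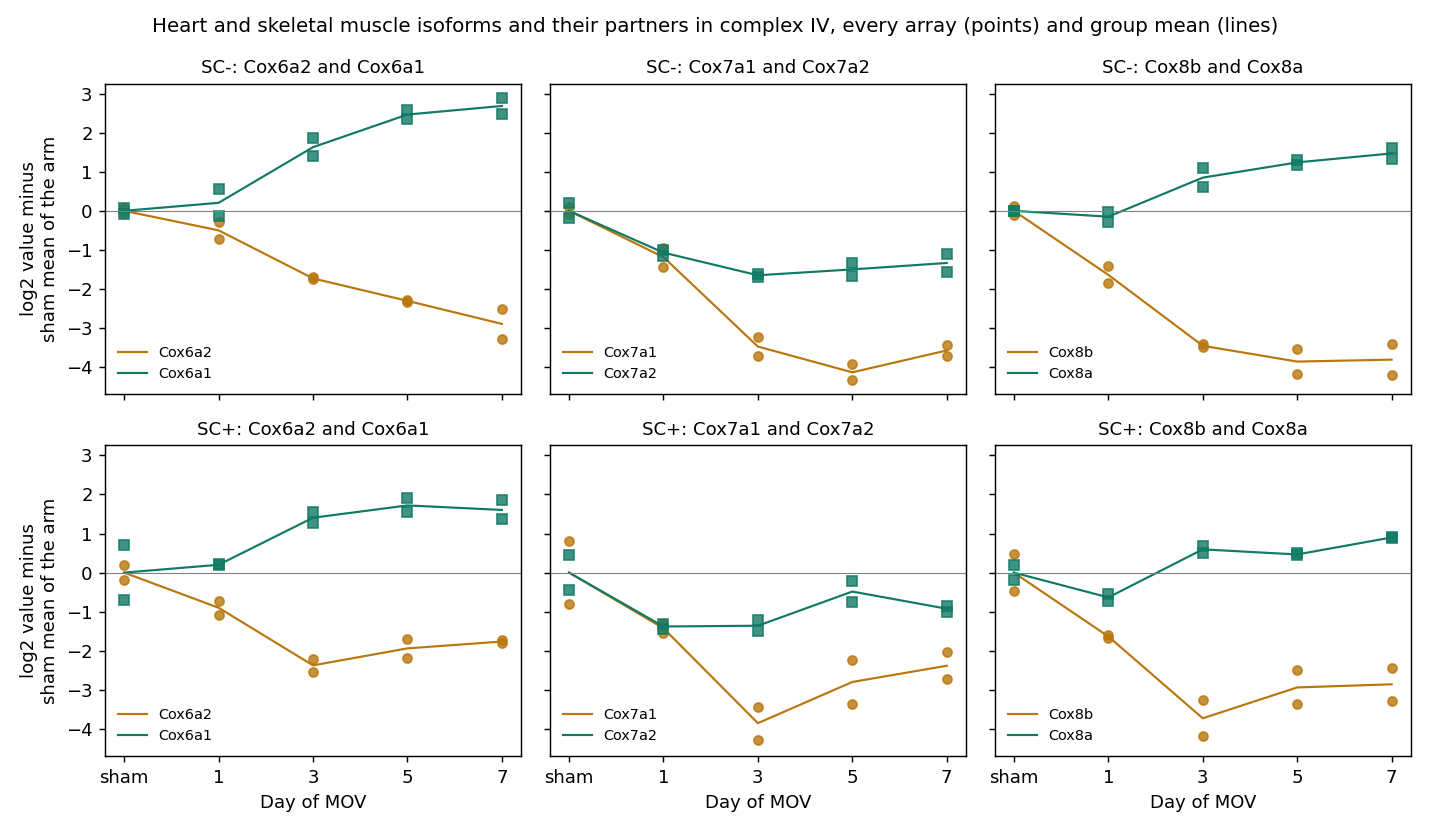
Log2 level of the muscle forms *Cox6a2*, *Cox7a1* and *Cox8b* (circles) and of their partners *Cox6a1*, *Cox7a2* and *Cox8a* (squares), each minus the mean of the 2 sham pools of its arm, by day of MOV, with SC- in the upper and SC+ in the lower panels (points are arrays, lines join group means). From day 3 on the muscle forms lie below their partners in every array, and *Cox6a1* and *Cox8a* lie above 0.

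The ratio of each muscle form to its partner within an array does not depend on a scaling that is common to the array. It can depend on the mix of cells in whole muscle, since the partners are found in most tissues. The part of the changes in cell markers in these ratios, and in the rises of *Cox6a1* and *Cox8a*, was not tested. Between the 16 MOV and the 4 sham arrays the log2 ratio of *Cox8b* to *Cox8a* changed by -3.58, that of *Cox6a2* to *Cox6a1* by -3.29 and that of *Cox7a1* to *Cox7a2* by -1.64 (two-sided exact permutation tests, p = 0.000413, 0.000826 and 0.0103, adjusted over 7 pairs 0.00145, 0.00174 and 0.0103). The ratio of *Cox8b* to *Cox8a* lay between -3.71 and 0.98 in MOV and between 0.99 and 2.35 in sham. In SC- this change was -1.49, -4.31, -5.10 and -5.28 at days 1, 3, 5 and 7 against the mean of the 2 sham arrays, and in SC+ it was -1.0, -4.32, -3.40 and -3.76. For *Cox6a2* and *Cox6a1* it was -0.71, -3.36, -4.77 and -5.58 in SC- and -1.10, -3.78, -3.66 and -3.38 in SC+. The ratio of *Cox7a1* to *Cox7a2* did not move at day 1 beyond the spread of the sham pools (-0.12 in SC- and -0.04 in SC+) and then changed by -1.83, -2.64 and -2.24 in SC- and by -2.49, -2.31 and -1.46 in SC+. Within 1 arm, the two-sided test of 8 MOV arrays against 2 sham arrays allows no p under 0.0444. That value is reached when every MOV array lies below both sham arrays. The arm values of *Cox8b* and *Cox8a* and of *Cox6a2* and *Cox6a1* had an exact permutation p of 0.0444 in each arm, and those of *Cox7a1* and *Cox7a2* 0.0889 in SC- and 0.133 in SC+. None was under 0.05 when adjusted over the 7 pairs, which only 7 pairs at 0.0444 could have reached. With 2 sham arrays in an arm the adjusted values therefore decide little.

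The promoters of these genes are shown because *Cox8b* and *Cox7a1* hold fewer CG dinucleotides near the start site than their partners, a feature picked after the values were known. The windows run from 250 bases before to 50 bases after the transcription start (RefSeq, GRCm38.p6, 300 bases), read 5′ to 3′ on the gene's strand, with each CG in capitals. *Cox8b* (chr7:140900397-140900696 on the minus strand) has 2 and *Cox7a1* (chr7:30183921-30184220 on the plus strand) has 7, whereas *Cox8a* (chr19:7217567-7217866 on the minus strand) has 19, *Cox7a2* (chr9:79759804-79760103 on the minus strand) has 20 and *Cox6a1* (chr5:115348909-115349208 on the minus strand) has 32.
Cox8b: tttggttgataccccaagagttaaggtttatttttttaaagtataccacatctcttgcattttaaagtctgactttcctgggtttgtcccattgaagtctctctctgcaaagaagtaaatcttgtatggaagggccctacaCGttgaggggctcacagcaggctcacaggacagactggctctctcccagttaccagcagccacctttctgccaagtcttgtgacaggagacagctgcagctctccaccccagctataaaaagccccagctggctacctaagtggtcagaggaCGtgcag
Cox7a1: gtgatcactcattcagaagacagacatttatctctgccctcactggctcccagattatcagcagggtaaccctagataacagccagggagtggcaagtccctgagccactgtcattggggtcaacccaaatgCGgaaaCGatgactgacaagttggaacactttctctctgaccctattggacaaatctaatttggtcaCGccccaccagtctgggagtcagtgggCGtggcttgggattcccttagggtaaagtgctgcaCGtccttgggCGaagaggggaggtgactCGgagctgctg
Cox8a: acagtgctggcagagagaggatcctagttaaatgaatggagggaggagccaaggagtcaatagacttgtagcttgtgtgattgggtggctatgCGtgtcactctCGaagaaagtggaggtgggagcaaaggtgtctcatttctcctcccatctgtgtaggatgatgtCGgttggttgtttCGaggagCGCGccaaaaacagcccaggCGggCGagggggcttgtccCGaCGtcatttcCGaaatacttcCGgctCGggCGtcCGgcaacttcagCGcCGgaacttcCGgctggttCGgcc
Cox7a2: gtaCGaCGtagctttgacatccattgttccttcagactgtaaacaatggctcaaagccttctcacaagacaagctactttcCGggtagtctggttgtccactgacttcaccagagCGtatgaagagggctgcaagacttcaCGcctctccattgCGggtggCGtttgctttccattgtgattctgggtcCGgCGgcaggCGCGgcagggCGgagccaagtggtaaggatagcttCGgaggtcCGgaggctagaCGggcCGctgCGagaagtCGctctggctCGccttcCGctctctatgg
Cox6a1: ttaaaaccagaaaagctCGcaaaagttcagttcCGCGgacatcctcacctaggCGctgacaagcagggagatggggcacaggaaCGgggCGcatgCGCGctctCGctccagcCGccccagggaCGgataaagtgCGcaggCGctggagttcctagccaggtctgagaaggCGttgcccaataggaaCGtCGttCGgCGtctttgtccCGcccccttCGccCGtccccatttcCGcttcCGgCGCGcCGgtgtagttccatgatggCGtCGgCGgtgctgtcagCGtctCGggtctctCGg
The median was 19 over the 71 windows of the 66 subunit genes that have one, and 7 over all 32851 windows. No window of *Cox6a2* was used. Genes outside these pairs did not follow the same order, since *Atp5g3* and *Atp5g2*, whose ratio also changed, have 21 and 20, and *Cox5a*, which fell at every day in both arms, has 35. The 8 letters GCATGCGC, a core of the motif of NRF1, a nuclear factor known to act on genes of the respiratory chain, were searched on both strands and occurred in 9 of the 71 windows (12.7%) and in 2.71% of all windows. The 9 windows belong to *Atp5g2*, *Atp5k*, *Atp5l*, *Cox6a1*, *Ndufa11*, *Ndufa6*, *Ndufa8*, *Uqcr11* and *Uqcrc1*. Of these genes *Cox6a1* rose, and the other 8 fell at 1 or more days in at least 1 arm. Falls were general among the subunit genes, of which only 5 did not fall at any day in either arm. A link between the NRF1 letters and the falls was not tested. The ERR motif TNAAGGTCA was found in 2 windows (2.82%, against 1.28% of all) and the GABP motif ACCGGAAGT in 1 (1.41%, against 1.10%). None of the 3 motifs contains another. These are matches of letters only. The letters for NRF1 and GABP each hold a CG, and the shares were not adjusted for the higher CG count of the subunit windows (median 19 against 7).

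The ratios of the other isoform pairs had changes closer to 0. *Cox4i1*, the common form of subunit 4, fell at days 3, 5 and 7 in SC- (-1.95, -1.87 and -1.57, adjusted p = 3.3e-05, 2.83e-05 and 0.000145), and at day 3 in SC+ it was at -2.14 (adjusted p = 0.000215). It also passed at day 1 in SC- (-0.974, adjusted p = 0.0175). In SC+ it passed at days 1, 5 and 7 too (-1.301, -1.293 and -0.985, adjusted p = 0.00633, 0.00626 and 0.027). Most calls of SC- at day 1 and of SC+ at days 1, 5 and 7 rested on single arrays. *Cox4i2*, the lung form, lay at 5.12 to 5.98 on all 20 arrays, which is near background, and passed at no day in either arm. *Ndufa4* fell at days 3, 5 and 7 in SC- (-1.49, -1.84 and -1.80, adjusted p = 0.000594, 5.32e-05 and 5.71e-05), and at day 3 in SC+ it was at -1.64 (adjusted p = 0.000978). In SC+ *Ndufa4* also passed at days 1, 5 and 7 (-0.923, -1.095 and -0.988, adjusted p = 0.0336, 0.0139 and 0.0248), and at day 1 in SC- it did not (-0.739, adjusted p = 0.0898). Its partner *Ndufa4l2*, known to be induced in low oxygen, had levels of 6.29 and 6.25 in SC- sham, 6.20 and 5.75 at day 1, 7.14 and 6.24 at day 3, 7.31 and 7.12 at day 5 and 6.95 and 6.76 at day 7, and stayed between 5.55 and 6.65 in SC+. It rose only at day 5 in SC- (0.95, adjusted p = 0.0111), and this call ended without SC- day 5 replicate 1 or SC- sham replicate 2 (0.86 and 0.93). In SC+ it passed at day 1 (-0.81, adjusted p = 0.0263), and not without any 1 of the 4 arrays compared. *Cox8c*, the form of testis, passed once, with 0.73 at day 1 in SC- (adjusted p = 0.0479), which ended without SC- day 1 replicate 1 or either SC- sham pool, and also with values quantile normalized again, with all rows, with an intensity trend, with the replicate block and with SC- arrays alone in the fit. The log2 ratio of *Ndufa4* to *Ndufa4l2* changed by -1.43 between MOV and sham (two-sided exact permutation test over 16 and 4 arrays, p = 0.00372, adjusted over 7 pairs 0.00434). Within 1 arm, the exact permutation p for *Ndufa4* to *Ndufa4l2* was 0.0444 in SC- and 0.133 in SC+. In SC+ this ratio lay between 8.43 and 10.45 in MOV and between 10.02 and 10.76 in sham, so the arrays overlapped. The ratio of *Cox4i1* to *Cox4i2* is not given, since *Cox4i2* was near background.

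Between days 3 and 7 the group means took different courses in the arms. In SC-, 19 of the 80 genes had their lowest mean at day 3, 34 at day 5 and 21 at day 7, and 40 had a higher mean at day 7 than at day 3. In SC+, 70 had their lowest mean at day 3, and 77 had a higher mean at day 7 than at day 3. The median difference of day 7 minus day 3 was 0.00 in SC- and 0.83 in SC+, against -0.02 over all genes in each arm. At an adjusted p under 0.05, 1 gene was lower at day 7 than at day 3 in SC-, *Cox6a2* (-1.17, adjusted p = 0.0149), and none was higher. Of all 19505 genes, 1115 passed in SC-, 489 of them lower (2.51% of all) and the rest higher. The call of *Cox6a2* ended without SC- day 7 replicate 1 (-0.78) or either SC- day 3 pool. In SC+ 12 of the 80 genes were higher, 6 of them in complex V, and none was lower. Of all 19505 genes, 838 passed in SC+, 510 of them higher (2.61% of all) and the rest lower. The difference between the arms in this step was not tested.

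*Uqcrh*, the hinge protein of complex III, had the lowest p in SC+. Its SC- levels were 17.02 and 16.87 in sham, 15.96 and 15.86 at day 1, 15.48 and 15.25 at day 3, 15.40 and 15.68 at day 5 and 15.66 and 16.05 at day 7. In SC+ they were 17.20 and 16.74 in sham, 15.58 and 15.62 at day 1, 15.32 and 15.04 at day 3, 16.40 and 16.39 at day 5 and 16.49 and 16.57 at day 7. The SC+ pools of days 5 and 7 thus lay between those of day 3 and those of sham, with day 7 minus day 3 at 1.34 (adjusted p = 0.007). *Cox6b1*, a subunit of the outer face of complex IV, had 14.61 and 14.87 in SC- sham, 13.70 and 13.50 at day 1, 13.42 and 13.10 at day 3, 13.75 and 13.20 at day 5 and 13.64 and 13.70 at day 7, and 14.78 and 14.32 in SC+ sham, 13.50 and 13.54 at day 1, 13.21 and 13.20 at day 3, 14.20 and 14.16 at day 5 and 14.51 and 14.31 at day 7. In SC+ it was 1.21 higher at day 7 than at day 3 (adjusted p = 0.0115), and *Atp5g1* was 1.30 higher (adjusted p = 0.0206). None of the 12 calls stood without each of the 4 arrays compared. There were 2 calls without SC+ day 3 replicate 1, 0 without SC+ day 3 replicate 2 and 1 without either pool of day 7, while the median stayed between 0.57 and 1.02 over all single arrays left out. In the same arrays the macrophage median was 1.64 and 1.77 at day 3 and 0.06 and 0.53 at day 7 in SC+, and the myofibre median 0.01 and -0.79 at day 3 and 0.15 and 0.06 at day 7, and their part in the difference was not tested.

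Set against SC+ at the same time point, SC- muscle had lower subunit levels at days 5 and 7. These comparisons were read at an unadjusted p under 0.05, and none of the 80 genes had an adjusted p under 0.05 at any time point. At day 5, 46 genes were lower and 2 higher in SC- (4.73% and 4.47% of all genes), and at day 7, 46 were lower and 1 higher (5.91% and 6.20%). In sham 1 gene was lower, *Cox8c* (-0.59, 3.02% of all genes), and the call ended without SC- sham replicate 1 or either SC+ sham pool. At day 1 the only call was *Atp5g1* (0.61 higher, 2.94% of all genes), not kept without SC- day 1 replicate 1 or SC+ day 1 replicate 1. At day 3 *Cox8c* was lower (-0.51, 2.66% of all genes), not without SC- day 3 replicate 1 or SC+ day 3 replicate 1, and *Ndufv3* was 0.61 higher, not without SC- day 3 replicate 1 or either SC+ day 3 pool. The median log2 difference was -0.03 in sham, 0.21 at day 1, 0.18 at day 3, -0.69 at day 5 and -0.67 at day 7, with medians over all genes between -0.01 and 0.01.

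The lower levels at days 5 and 7 ran through all complexes. At day 5, 21 of 37 genes of complex I, 5 of 8 of complex III, 8 of 18 of complex IV and 12 of 17 of complex V were lower in SC-, with medians of -0.69, -0.72, -0.42 and -0.81. At day 7 the counts were 17, 5, 10 and 14 and the medians -0.65, -0.72, -0.59 and -0.71. In all 17 genes of complex V the SC- mean was lower than the SC+ mean on both days. Single arrays weighed on the counts here as well, since at day 5, 17 genes were lower without SC- day 5 replicate 2 and 16 without SC+ day 5 replicate 1, and at day 7, 15 without SC- day 7 replicate 1 and 16 without SC+ day 7 replicate 1. With any 1 array left out the median stayed between -0.86 and -0.48 at day 5 and between -0.85 and -0.51 at day 7.

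**Figure D5:**
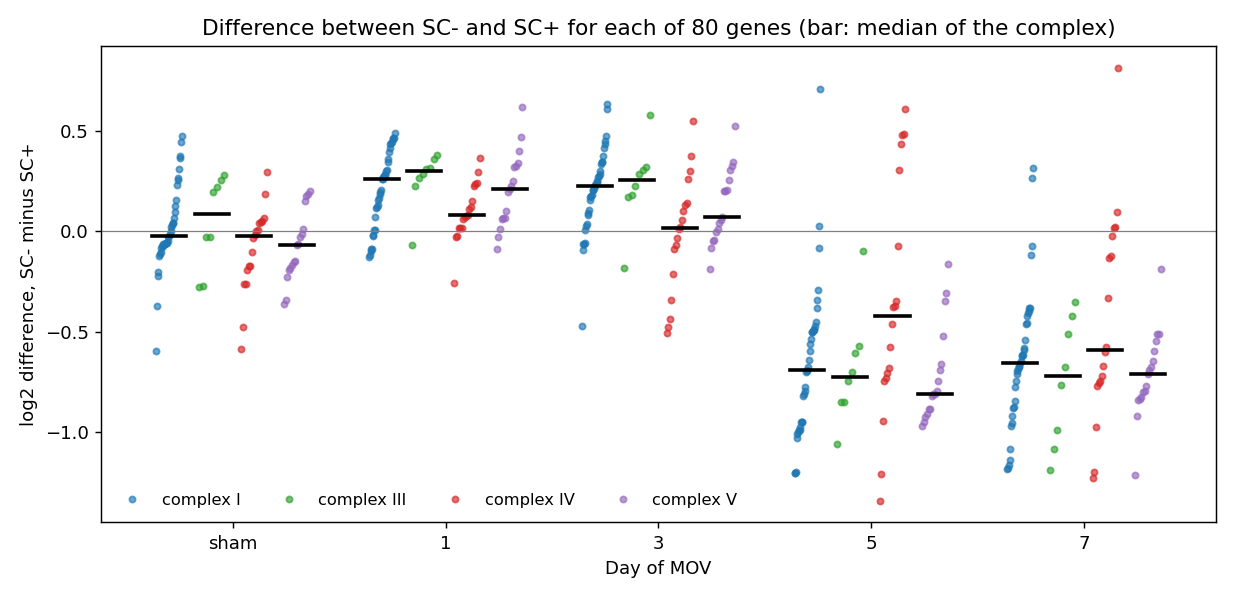
Log2 difference between SC- and SC+ for each of the 80 genes in sham and at 4 days of MOV, coloured by complex, with a bar at the median of each complex. The medians lie between -0.07 and 0.30 up to day 3 and between -0.81 and -0.42 at days 5 and 7.

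A smaller number of genes were lower whichever of the 4 arrays was left out, 10 at day 5 and 12 at day 7, and *Ndufa10*, *Ndufa5*, *Ndufa9* and *Ndufb10* of complex I were among them on both days. *Ndufa9*, which lies near the quinone site, had 13.83 and 13.93 in SC- sham, 12.53 and 12.50 at day 1, 11.63 and 11.48 at day 3, 11.63 and 11.43 at day 5 and 11.70 and 11.45 at day 7, and 14.16 and 13.35 in SC+ sham, 12.61 and 12.68 at day 1, 11.94 and 11.36 at day 3, 12.52 and 12.53 at day 5 and 12.82 and 12.27 at day 7. The 2 arms overlapped in sham and at day 3, SC- lay slightly below SC+ at day 1, and they stood further apart at days 5 and 7, by -1.0 and -0.97 (unadjusted p = 0.00173 and 0.0022, adjusted 0.267 and 0.129 in limma). *Ndufa10* was lower in SC- at day 5 (-0.99, unadjusted p = 0.000696) and day 7 (-0.87, unadjusted p = 0.00204), and so was *Ndufa5* (-1.20 and -1.16, unadjusted p = 0.00108 and 0.00148). At day 7 the 3 lowest p-values were those of *Atp5g3* (-1.21, unadjusted p = 0.000228, adjusted 0.0551), *Cox6a2* (-1.23, 0.000258 and 0.0579) and *Uqcrfs1* (-1.19, 0.00047 and 0.0738), all of which stood without any 1 array. At day 5 *Cox7a2* had the lowest (-1.21, unadjusted p = 0.0005, adjusted 0.203).

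Going against the rest, *Ndufa4l2* was 0.71 higher in SC- at day 5 (unadjusted p = 0.0168) and *Cox6a1* 0.81 higher at day 7 (unadjusted p = 0.0347), and *Cox7b2*, named after its value was seen, was 0.61 higher at day 5 (unadjusted p = 0.0388). *Cox7b2* lies near background, and its value did not pass without SC- day 5 replicate 2 (0.23) or SC+ day 5 replicate 2 (0.46). The values of *Ndufa4l2* and *Cox6a1* did not pass without SC- day 5 replicate 1 or SC+ day 5 replicate 2 for the one and SC- day 7 replicate 1 or SC+ day 7 replicate 1 for the other. In the arrays of days 5 and 7 the myofibre median was -0.38, -0.67, -0.71 and -0.11 in SC- and 0.12, 0.01, 0.15 and 0.06 in SC+, and the macrophage median 2.05, 1.41, 1.47 and 0.59 in SC- and 0.42, 0.92, 0.06 and 0.53 in SC+. At an unadjusted p under 0.05, 6 and 8 of 15 myofibre markers were lower and 5 and 3 of 13 macrophage and 1 and 4 of 6 neutrophil markers higher in SC- on these days, and 0 and 0 of 9 fibroblast markers differed. The median of the neutrophil markers was 0.69 higher in SC- at day 5 and 1.27 higher at day 7. These counts of days 5 and 7 moved with single arrays, to between 3 and 10 for the myofibre, 1 and 6 for the macrophage and 1 and 5 for the neutrophil markers over both days. Markers also differed between the arms at day 1. There 6 of 6 neutrophil markers (median -1.44) and 2 macrophage markers were lower in SC-. In the same comparison 5 of 9 fibroblast markers (median 1.77), 1 macrophage and 1 myofibre marker were higher. The part of these markers in the difference between the arms was not tested.

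The difference between the responses themselves, which takes in the sham pools, was also tested. At day 5 the SC- response was lower for 25 genes and higher for 4 at an unadjusted p under 0.05 (3.91% and 3.90% of all genes), and at day 7 it was lower for 19 and higher for 1 (4.82% and 4.46%), with medians of -0.73 and -0.65 and no adjusted p under 0.05 (lowest 0.543 and 0.302). Without SC+ sham replicate 1, 48 genes were lower at each of these days, and without SC+ sham replicate 2 only 2 were lower at day 5 and 3 at day 7. The counts were also 8 at day 5 without SC- day 5 replicate 2 or SC+ day 5 replicate 1, 6 and 7 at day 7 without SC- day 7 replicate 1 and SC+ day 7 replicate 1, and 16 and 12 without SC- sham replicate 2. The 4 higher values at day 5 were those of *Cox8c* (1.06), *Ndufa4l2* (0.93), *Cox7b2* (0.87) and *Cox8a* (0.78), and at day 7 that of *Cox6a1* (1.08), and only *Cox8c* kept its call without each array in turn. *Ndufa5* was lower at both days without any 1 of the 8 arrays (-1.43 and -1.39, unadjusted p = 0.00425 and 0.00527). With the time points pooled in the same way, 14 genes were lower and none higher in SC- at an unadjusted p under 0.05 (4.29% of all genes lower), with *Cox7a2* lowest in p (-0.47, unadjusted p = 0.005, adjusted 0.343), followed by *Ndufs5* (-0.47, unadjusted p = 0.00898) and *Atp5g3* (-0.43, unadjusted p = 0.00972). With 1 array left out this count lay between 7, without SC+ day 7 replicate 1, and 29, without SC+ sham replicate 2; it was also 9 without SC- day 5 replicate 2 or SC+ day 5 replicate 2, 8 without SC- day 7 replicate 1 or SC+ day 5 replicate 1 and 28 without SC+ day 3 replicate 2.

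Other genes of the same organelle were read beside the 80. All 4 genes of complex II, the succinate dehydrogenase, fell at each day in SC-, with medians of -1.61, -2.05, -2.16 and -2.03, and 3, 4, 2 and 3 fell in SC+, with medians of -1.48, -1.94, -1.38 and -1.45. *Sdhb*, its iron-sulphur subunit, fell at day 3, to -2.18 in SC- and -2.43 in SC+. At days 3 and 7 *Cyc1*, cytochrome c1 of complex III, which the symbols do not take in, was at -2.46 and -2.72 in SC- and at -3.14 and -1.99 in SC+. *Ndufab1*, the acyl carrier protein of complex I, had -1.57 in SC- and -1.81 in SC+ at day 3 (adjusted p = 0.000264 and 0.00107). With *Atp5md*, *Atp5mpl* and *Atpif1* they make a list of 5 genes. Of these, 4, 4, 4 and 4 fell at days 1, 3, 5 and 7 in SC- and 4, 4, 2 and 2 in SC+. In each arm 0, 1, 1 and 1 rose. *Atpif1*, the inhibitor of the ATP synthase, named after its value was seen, rose by 0.91 and 2.31 at days 3 and 7 in SC- and by 0.92 and 1.64 in SC+ (adjusted p = 0.0125, 1.51e-06, 0.00909 and 0.000527), where the day 3 calls ended without SC- day 3 replicate 1 or SC- sham replicate 2 in SC-, and without either SC+ day 3 pool in SC+. Of 11 genes of electron carriers and coenzyme Q synthesis, 7, 10, 9 and 9 fell in SC- and 8, 9, 7 and 6 in SC+. *Cycs*, cytochrome c, had -1.07 at day 3 in SC- and -1.18 in SC+, and *Etfa*, an electron transfer flavoprotein, -1.74 and -1.84.

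The factors that assemble the complexes fell in smaller numbers. Of 15 for complex I, 4, 5, 7 and 7 fell in SC- and 7, 8, 4 and 6 in SC+, with medians between -0.84 and -0.46, and of 28 for complexes III to V, 13, 8, 12 and 15 fell in SC- and 10, 10, 5 and 5 in SC+, with 1 that rose at day 5 in SC-. *Ndufaf1* had -1.76 at day 3 in SC- and -1.88 in SC+, while *Ndufaf2* had 0.05 and 0.35 (adjusted p = 0.923 and 0.33). Of 14 genes of import, chaperones and porins, 5, 4, 8 and 8 fell and 0, 2, 1 and 0 rose in SC-, and 3, 3, 3 and 4 fell and 0, 1, 0 and 0 rose in SC+. *Tomm20*, a receptor of the outer membrane, was at -0.21 in SC- and 0.23 in SC+ at day 3 (adjusted p = 0.575 and 0.541). Of 11 regulators of mitochondrial biogenesis, 4, 5, 5 and 7 fell and 1, 1, 1 and 1 rose in SC-, and 3, 4, 3 and 3 fell and 1, 1, 0 and 1 rose in SC+. *Ppargc1a*, which encodes the coactivator PGC-1α, was at -3.13 and -4.77 at days 3 and 7 in SC- (adjusted p = 0.00279 and 3.51e-05) and at -4.15 and -3.15 in SC+ (adjusted p = 0.00239 and 0.016), and the day 3 call in SC- ended without SC- sham replicate 1 (-2.37) and the day 7 call in SC+ without SC+ day 7 replicate 2 or SC+ sham replicate 1 (-2.19 and -2.0). *Ppargc1b*, its relative, had -0.44 and -0.92 in SC- (adjusted p = 0.17 and 0.00268) and 0.04 and 0.34 in SC+ (adjusted p = 0.93 and 0.33). As with the subunits, these counts leaned on single arrays in both arms. Without each array in turn, at day 1 in SC- 1 of the 4 calls of complex II, 2 of 7 of the electron carriers, 0 of 4 of the assembly factors of complex I and 2 of 13 of those of complexes III to V stood, and at day 3 1 of 8 of the last and 2 of 5 of the regulators. At day 7, 4 of 4 calls of complex II, 9 of 9 of the electron carriers, 5 of 7 and 8 of 15 of the assembly factors and 5 of 7 of the regulators stood in SC-, against 0 of 3, 4 of 6, 0 of 6, 2 of 5 and 2 of 3 in SC+.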

How the data were processed

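Whole plantaris RNA of 20 pools was hybridised to Affymetrix arrays. The authors deposited log2 values made with RMA, per the submitters' processing notes; the version and probe-set definition are not given in the sources used here, and the paper's array name (Mouse Gene 1.0 ST) does not settle the type, because the probe sets carry another style of name. Of 28846 rows, 19572 named a single gene, and for 55 genes with several probe sets the brightest on average stood for the gene, which left 19505 genes. Nothing was normalized again except in an alternative.

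Group means were fitted with limma 3.58.1 (statmod 1.5.0, R 4.3.3; lmFit and eBayes). The SC+ response used the 10 SC+ arrays (5 residual degrees of freedom, prior 6.76), and the SC- response, the differences between arms and between responses all 20 (10, prior 8.16). An additive model of time point and arm gave the difference over all time points (14, prior 7.52). p-values were adjusted by Benjamini-Hochberg over all genes. Responses and day 7 minus day 3 were read at an adjusted p under 0.05, and differences between arms at an unadjusted p under 0.05, as in the study's methods. Isoform ratios were tested by exact permutation over arrays. The fits were tested on simulated data. With 2 arrays a group, the number of arrays limits the precision.

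Replicate numbers were not taken as pairs, since correlations of same-numbered arrays' deviations lay between -0.155 and 0.216 (median -0.00915 over 45 pairs of groups). Genes were named by a rule: both genes of 7 isoform pairs, the 3 lowest and 2 highest of each complex at day 3 in SC+, the lowest p-values between arms and between days 7 and 3, the rises, and the first 3 measured of each other list. Of the other lists the text gives only some of these 3 genes or none, a choice that the rule did not set. The members, lists and rule were chosen with earlier results of these data known. The alternatives were quantile normalization of the values again, a mean of at least 6, all rows, an intensity trend with a robust prior, the replicate block, other arrays in the fit, members under a mean of 19, and each array left out.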

Additional observations from a re-analysis of the deposited data

How the results depend on the processing

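The direction of the median log2 difference of the 80 genes was kept under every alternative for the responses at each day, for day 7 minus day 3 in SC+, and for SC- minus SC+ at days 5 and 7. No single-gene or isoform result that passed changed its direction. Of 3830 values of named genes under the alternatives that keep all arrays, 3702 stayed on their side of the threshold, 65 lost a call and 63 gained one.

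The counts moved as follows. With all 28846 rows in the fit and the adjustment, 37 and 27 genes fell at days 1 and 7 in SC+, and 2 were higher at day 7 than at day 3 in SC+. The last count was 21 in a fit of all 20 arrays. With values quantile normalized again, 22 genes were lower in SC- over all time points. The fit with the replicate block gave 22 genes higher at day 7 than at day 3 in SC+, and it left 0 genes higher at day 1 in SC- and 0 lower in SC- than in SC+ at day 3, where 1 gene each had passed. The 1 gene higher at day 1 in SC- was also lost with values quantile normalized again, all rows, an intensity trend or other arrays in the fit, and the 1 higher at day 3 in SC+ with all rows. Counts of 0 to 2 between the arms moved to between 0 and 3. The median stayed as it was for members with a mean under 19, since all 80 have one.

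With each array left out in turn, the count of genes that fell lay between 20 and 51, 64 and 71, 65 and 71 and 61 and 71 at days 1, 3, 5 and 7 in SC-, and between 20 and 68, 56 and 69, 12 and 61 and 12 and 55 in SC+. The medians lay between -0.977 and -0.916, -1.654 and -1.559, -1.799 and -1.585 and -1.759 and -1.562 in SC-, and between -1.496 and -0.802, -2.137 and -1.428, -1.409 and -0.713 and -1.314 and -0.614 in SC+. For day 7 minus day 3, between 0 and 1 genes were lower and between 0 and 1 higher in SC- (median -0.068 to 0.073), and between 0 and 27 were higher in SC+ (median 0.566 to 1.021). Against SC+, between 16 and 49 genes were lower in SC- at day 5 (median -0.858 to -0.48), between 15 and 51 at day 7 (-0.845 to -0.508) and between 7 and 29 over all time points (-0.259 to -0.135), and the median lay between -0.369 and 0.312 in sham, 0.12 and 0.239 at day 1 and -0.056 and 0.351 at day 3. The SC- response was lower than the SC+ response for 2 to 48 genes at day 5 (median -1.062 to -0.351) and 3 to 48 at day 7 (-0.988 to -0.325), with medians of -0.103 to 0.536 at day 1 and -0.177 to 0.452 at day 3. The changes of the 7 isoform ratios all stayed on their side of the threshold.

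The 3 genes with a mean under 6 have little signal above background, and the 4 with a mean of 18 or more had small falls (medians of -0.87 in SC- and -0.95 in SC+ at day 3).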
